A study of Arabidopsis thaliana with 6 samples.

Results

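Transcripts of plant cell wall families were measured in whole Arabidopsis thaliana seedlings and compared between estradiol and mock treatment. Members were the probe sets with 1 annotated locus whose gene symbol begins with the name of an expansin (EXP, EXLA, EXLB), a xyloglucan endotransglucosylase/hydrolase (XTH, XTR), a cellulose synthase or cellulose synthase-like protein (CESA, CSLA to CSLG), a pectin methylesterase (PME), an arabinogalactan protein (AGP, FLA), a galacturonosyltransferase (GAUT, GATL), an extensin (EXT) or a proline-rich protein (PRP). The rule found 43 of the 22746 probe sets on the array. It reads symbols and no measured value, but it was set with earlier results of these data known. Of the 43, 40 belong to wall families. The other 3 were caught by their letters alone: PMEAMT (AT1G48600) is a phosphoethanolamine N-methyltransferase of phosphocholine synthesis, and PRP39 (AT1G04080) and PRP39-2 (AT5G46400) are named for a pre-mRNA splicing factor.

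All 6 samples were seedlings of a stable T3 line in the Col-0 ecotype, aged 14 days, that carries the chimeric factor XVE, expressed constitutively, and RPXΔC under a LexA promoter. Estradiol lets XVE into the nucleus, where it switches on RPXΔC, which derives from RPX, a transcription factor of the NAC type. One group of 3 received 10 µM estradiol for 2 h and the other 3 a mock, described both as ethanol and as inducer-free medium. Both groups carry the construct and no line without it was sampled, so estradiol, RPXΔC and, if the mock lacked it, the vehicle cannot be told apart. The labels call the samples biological replicates and do not say whether seedlings were pooled or whether the line is 1 insertion.

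Growing plant cells are held by a wall of cellulose microfibrils linked by xyloglucan and embedded in pectin. Expansins loosen this network without cutting it, and XTHs cut and rejoin xyloglucan chains. CSLC proteins make the xyloglucan backbone, CSLA proteins make mannans, and pectin methylesterases strip methyl groups from homogalacturonan, which changes how stiff the pectin is. Wall genes of this kind are known to respond quickly to auxin, brassinosteroid, touch and other handling in seedlings.

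The coverage of the families was uneven. The members hold 14 of the 32 loci with an EXP symbol in the TAIR10.1 annotation, 9 of the 30 XTH loci and all 5 CSLC loci. They hold 2 of 9 CSLA loci, 1 of 6 CSLD loci and 1 of 13 GAUT loci. Of the 19 loci with a PME symbol they hold 5, PMEAMT among them. Of the 13 with a PRP symbol they hold 2, PRP39 and PRP39-2. All 3 EXLA loci and the 1 EXLB locus were among them. No CESA, CSLB, CSLE, CSLG, AGP, FLA, GATL, EXT or XTR locus has a probe set listed for it alone. Cellulose synthases, arabinogalactan proteins, extensins and proline-rich wall proteins were therefore not analysed here. A further 2 probe sets, one listed for EXPA22 and EXP26 and one for EXPA23 and EXPA25, were left out because each carries 2 loci.

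The deposited signals of the members lay between 0.356 and 312 on a linear scale, and 13 of the 43 (30.2%) had a mean under 16, against 34.2% of all probe sets. No detection calls were used, so whether such dim probe sets lie above background is not known here. Leaf and root transcripts were both present, as whole seedlings require: LHCB4.2, a light-harvesting protein, gave 2163 to 2699 and PYK10, a root beta-glucosidase, 1634 to 2606 over the 6 arrays. Estradiol replicate 3 had an actin 3'/5' signal ratio, a measure of RNA integrity, of 15.2, against 4.37 to 6.11 on the other arrays. Mock replicates 1 and 2 had 25S rRNA control signals of 302 and 286, against 918 to 1534 on the others.

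No wall gene differed between estradiol and mock at the threshold used. With limma on log2(signal + 16) and Benjamini-Hochberg adjustment over all 22746 probe sets, 0 of the 43 members had an adjusted p under 0.05, and their adjusted p-values ran from 0.517 to 1.00. Over all probe sets the same rule called 26 higher (0.114%) and 0 lower (0%). Before adjustment, 1 member was lower at p under 0.05 and 0 were higher, where the shares over all probe sets were 4.58% lower and 3.96% higher. No member's log2 difference of signal + 16 went beyond 0.5 in either direction. The same was true of most probe sets, as 785 of the 22746 went beyond it. With 1 added to the signal in place of 16, some members did go beyond 0.5. XTH19 was then -0.92, EXPB2 -0.84, XTH29 0.83, EXPA8 -0.75 and EXLA3 -0.502. The 95% intervals of 40 members lay within 1 log2 unit of 0, a 2-fold difference in signal + 16. Those of EXPA8, EXLA1 and XTH18 reached further. In the 13 members with a mean under 16, the added 16 itself holds the differences near 0. For them the intervals therefore set no bound on the fold change of the signal.

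The members' differences leaned slightly downward. Their median log2 difference was -0.07, with 28 of 43 negative (65.1%), beside a median of -0.03 and 57.1% negative over all probe sets. The lean did not hold over the arrays. The median was 0.03 with 18 of 43 negative without mock replicate 3, -0.016 with 23 negative without estradiol replicate 1, and -0.0066 with 23 negative without both replicate 3 arrays. Pectin methylesterases had a median of 0.07, CSL genes -0.04, beta-expansins -0.05, alpha-expansins -0.07, XTHs -0.10 and A-type expansin-like genes -0.11. With 1 array or both replicate 3 arrays left out, the sign was kept for alpha-expansins (-0.16 to -0.023) and pectin methylesterases (0.0081 to 0.17) and changed for the other 4 groups.

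**Figure D1:**
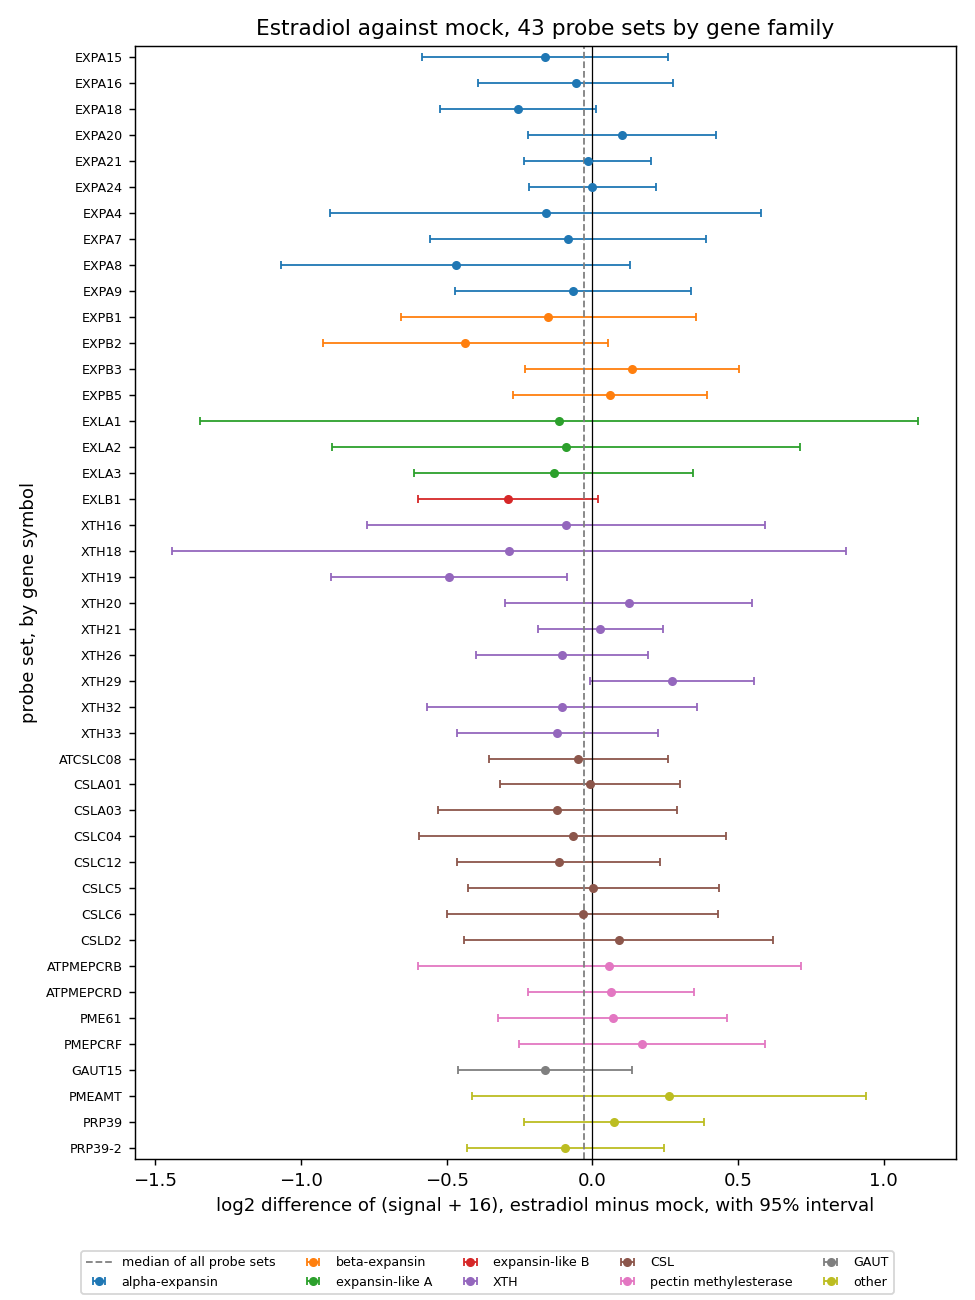
Log2 difference of signal + 16 between estradiol and mock (horizontal axis, estradiol minus mock) for each of the 43 probe sets, coloured by family, with 95% limma intervals from 3 arrays a group. The intervals cross 0 in 42 probe sets and not in XTH19, whose adjusted p was 0.517, and the dashed line marks the median of all 22746 probe sets, -0.03.

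Among the xyloglucan-modifying enzymes, XTH19 (AT4G30290) had the smallest p of all members. In mock it gave signals of 29.1, 22.2 and 25.5, and with estradiol 15.8, 7.14 and 19.0. The groups did not overlap, with estradiol replicate 2 the lowest. The means were 25.6 ± 3.49 and 14.0 ± 6.12 (SD, n = 3 each). The log2 difference of -0.49 ± 0.17 SE did not pass over all probe sets (limma adjusted p = 0.517), and it was -0.32 without estradiol replicate 2. As bulk arrays sum over tissues, fewer cells of a type and less RNA per cell cannot be told apart in this or any value below.

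XTH29 (AT4G18990) was the member whose signal lay higher with estradiol on all 3 arrays. It gave 2.99, 6.27 and 4.75 in mock and 9.49, 6.32 and 11.2 with estradiol, so the groups were separated only by the distance between 6.27 and 6.32. All 6 values were under the pseudocount of 16, which shrinks the log2 difference to 0.27 ± 0.12 SE (adjusted p = 0.599), and whether they exceed background is not known.

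XTH18 (AT4G30280) lies next to XTH19 on chromosome 4, with no protein-coding gene between them, and its arrays ordered differently. It gave 108, 91.4 and 243 in mock and 67.3, 78.0 and 229 with estradiol. The arrays numbered 3 stood above the other 4, and within replicates 1 and 2 the estradiol values were below both mock values. XTH16 (AT3G23730) had the same 2 arrays on top, with 101, 119 and 209 in mock and 121, 97.3 and 174 with estradiol. XTH32 (AT2G36870), of the XTH clade with predicted xyloglucan hydrolase activity, was high on mock replicate 3 alone, at 142 against 84.9 to 107 elsewhere.

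The remaining XTH probe sets did not exceed 25.4 on any array. XTH20 (AT5G48070) gave 4.82, 12.3 and 11.5 in mock and 14.0, 6.48 and 15.2 with estradiol, and the groups overlapped (log2 difference 0.12, adjusted p = 0.884). XTH33 ranged from 14.2 to 25.4 over the 6 arrays, XTH26 from 0.439 to 5.32 and XTH21 from 0.497 to 1.84.

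Alpha-expansins, the family tied to acid-induced wall loosening, had 8 of 10 differences below 0 and 0 past the threshold. EXPA18 (AT1G62980), a root hair expansin, had the smallest p among them. It gave 29.6, 22.4 and 29.5 in mock and 20.6, 17.8 and 21.8 with estradiol. Every estradiol value was below every mock value, by little in the case of 21.8 against 22.4. The means of 27.2 ± 4.12 and 20.1 ± 2.1 (SD, n = 3 each) correspond to a log2 difference of -0.26 ± 0.11 SE (adjusted p = 0.606). EXPA7 (AT1G12560), the other root hair expansin, gave 24.9, 36.2 and 49.7 in mock and 27.4, 30.6 and 42.3 with estradiol, and its groups overlapped. The shoot markers LHCB4.2 and LHCB4.3 had log2 differences of -0.15 (adjusted p = 0.737) and -0.27 (adjusted p = 0.647), and the root marker PYK10 had -0.27 (adjusted p = 0.709). The part of tissue proportions in the EXPA18 values was not tested.

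EXPA8 (AT2G40610) had the largest negative difference among the expansins, and it rested largely on 1 array. The mock arrays gave 23.6, 18.5 and 51.0 and the estradiol arrays 14.5, 21.6 and 14.0. Mock replicate 3 stood above all others, and the remaining mock and estradiol values overlapped. The log2 difference was -0.47 ± 0.25 SE (adjusted p = 0.659) with all arrays, -0.18 without mock replicate 3 and -0.66 without mock replicate 2.

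EXPA4 (AT2G39700) varied over the arrays without following treatment, from 28.4 to 76.7 in mock and from 32.7 to 65.3 with estradiol. EXPA9 (AT5G02260) gave 42.1 to 73.3 and EXPA15 (AT2G03090) 26.7 to 51.9 over the 6 arrays, with the groups overlapping in both. EXPA20 (AT4G38210) was one of the 2 alpha-expansins with a positive difference, from 17.9 ± 5.04 in mock to 20.1 ± 2.14 with estradiol (log2 difference 0.10, adjusted p = 0.876). EXPA16 ranged from 6.35 to 14.7. EXPA21 and EXPA24, which lie in 1 stretch of chromosome 5 with 4 protein-coding genes between them, did not exceed 1.82 on any array.

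Beta-expansins, the family that in grasses includes pollen allergens, did not exceed 31.8 on any array. EXPB2 (AT1G65680) gave 20.5, 31.8 and 15.9 in mock and 12.6, 6.75 and 18.6 with estradiol. Mock replicates 1 and 2, whose 25S rRNA control signal was low, were its highest, as in 14% of all probe sets, and mock replicate 3 lay among the estradiol values. Its log2 difference was -0.44 ± 0.21 SE (adjusted p = 0.632), -0.27 without mock replicate 2, -0.28 without estradiol replicate 2 and -0.71 without both replicate 3 arrays. The part of the array difference behind the 25S signal in this result was not tested. EXPB3 (AT4G28250) went from 17.1 ± 4.28 to 20.5 ± 5.27 (log2 difference 0.14, adjusted p = 0.844), EXPB1 ranged from 0.463 to 12.7 and EXPB5 from 7.54 to 15.8.

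Expansin-like proteins share the domains of expansins, but wall loosening has not been established for them. EXLB1 (AT4G17030) gave 144, 103 and 117 in mock and 97.1, 91.0 and 98.9 with estradiol. All estradiol values lay below all mock values and close to each other. The means were 122 ± 20.9 and 95.7 ± 4.12 (SD, n = 3 each), with a log2 difference of -0.29 ± 0.13 SE (adjusted p = 0.614) that was -0.17 without mock replicate 1. Together with XTH19 and EXPA18 it was 1 of 3 members whose groups did not overlap with estradiol lower, or 6.98% of the 43, against 7.74% of all probe sets. XTH29 was the 1 member with estradiol higher throughout, 2.33% against 5.79%. Neither share exceeded that of the array as a whole.

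**Figure D2:**
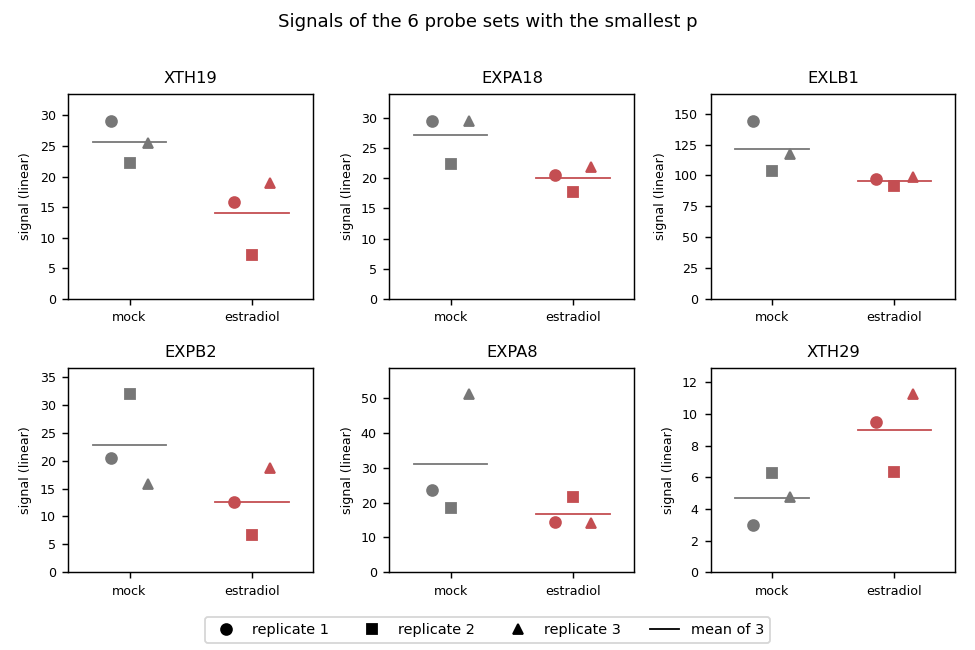
Deposited signal (vertical axis, linear, each panel on its own scale from 0) of the 6 members with the smallest limma p, with mock in grey, estradiol in red, a symbol per replicate number and a line at each mean of 3. XTH19, EXPA18 and EXLB1 lie lower with estradiol on every array and XTH29 higher, while EXPB2 and EXPA8 overlap; none passed the adjusted threshold.

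The A-type expansin-like genes varied most over the arrays: the median SD over the 6 arrays was 0.47 log2 units for these 3 genes and 0.16 to 0.25 in the other families. EXLA1 (AT3G45970) gave 103, 121 and 276 in mock and 117, 73.1 and 300 with estradiol. The arrays numbered 3 were high, the group means of 167 ± 95.3 and 163 ± 120 (SD, n = 3 each) were near each other, and the log2 difference of -0.11 had an interval from -1.35 to 1.12 (adjusted p = 0.975). EXLA2 (AT4G38400) also had both replicate 3 arrays on top, with 17.4, 3.96 and 31.6 in mock and 8.19, 10.8 and 24.6 with estradiol. EXLA3 (AT3G45960), which is adjacent to EXLA1 on chromosome 3, stayed between 0.387 and 9.38 and did not have replicate 3 on top in the estradiol group.

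High signal on the 2 arrays numbered 3 recurred in some of the families. In 11 of the 43 members (25.6%) both replicate 3 arrays lay above the other 4, and in 2 (EXPA16 and EXPA24) both lay below. Over all probe sets the shares were 10.1% above and 9.62% below. By family, both lay above in 3 of 8 CSL genes, 2 of 9 XTHs, 2 of 3 A-type expansin-like genes and 2 of 4 pectin methylesterases. The count was 1 of 10 in alpha-expansins, the family of the 2 members with both below. It was 0 among the 4 beta-expansins, and neither EXLB1 nor GAUT15 had this order. After quantile normalization the count was 14 of 43, beside 11.0% of all probe sets. Among probe sets with a mean signal of 16 or more it was 11 of 30 members, beside 12.3%. This order was looked for after the values were seen and is given as a description, with no test.

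The 11 were EXPA7, EXLA1, EXLA2, XTH16, XTH18, CSLC04, CSLC5, CSLD2, PMEPCRF, ATPMEPCRD and the non-wall gene PMEAMT. The spread in several of them was larger than any difference between treatments, as for XTH18, where the means of 148 ± 83.3 in mock and 125 ± 90.1 with estradiol differed by -0.28 log2 units (SE 0.49, adjusted p = 0.909). With both replicate 3 arrays left out, XTH18 differed by -0.38 (adjusted p = 0.402) and EXLA1 by -0.23 (adjusted p = 0.742). Both replicate 3 arrays also lay above the other 4 in the actin 3'/5' ratio, mock replicate 3 by little. In the GAPDH ratio only estradiol replicate 3 did. The actin 3'/5' ratio was 15.2 on estradiol replicate 3 and 6.11 on mock replicate 3, against 4.37 to 5.97 on the other 4 arrays. The 3'/5' ratio of GAPDH was 1.68 on estradiol replicate 3. On mock replicate 3 it was 1.01, within the range of the other 4 arrays. The 25S rRNA signal was 1534 on mock replicate 3 and 1323 on estradiol replicate 3, against 286 to 1216 elsewhere. Both replicate 3 arrays thus lay above the other 4 in this signal too, and the nearest value, 1216, was on estradiol replicate 2. Of 6 listed heat-shock genes 2 have a probe set of their own, and both were lowest on the replicate 3 arrays. HSP22, a small heat-shock protein, read 18.9 on mock replicate 3 and 20.8 on estradiol replicate 3, against 110.0 to 647 on the others. FKBP65, a heat-induced immunophilin, read 63.4 and 69.6, against 136 to 705. The part of RNA integrity, of the 25S difference and of the state behind the heat-shock signals in the order of the wall genes was not tested. The labels do not say whether samples with the same number were grown or harvested together.

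**Figure D3:**
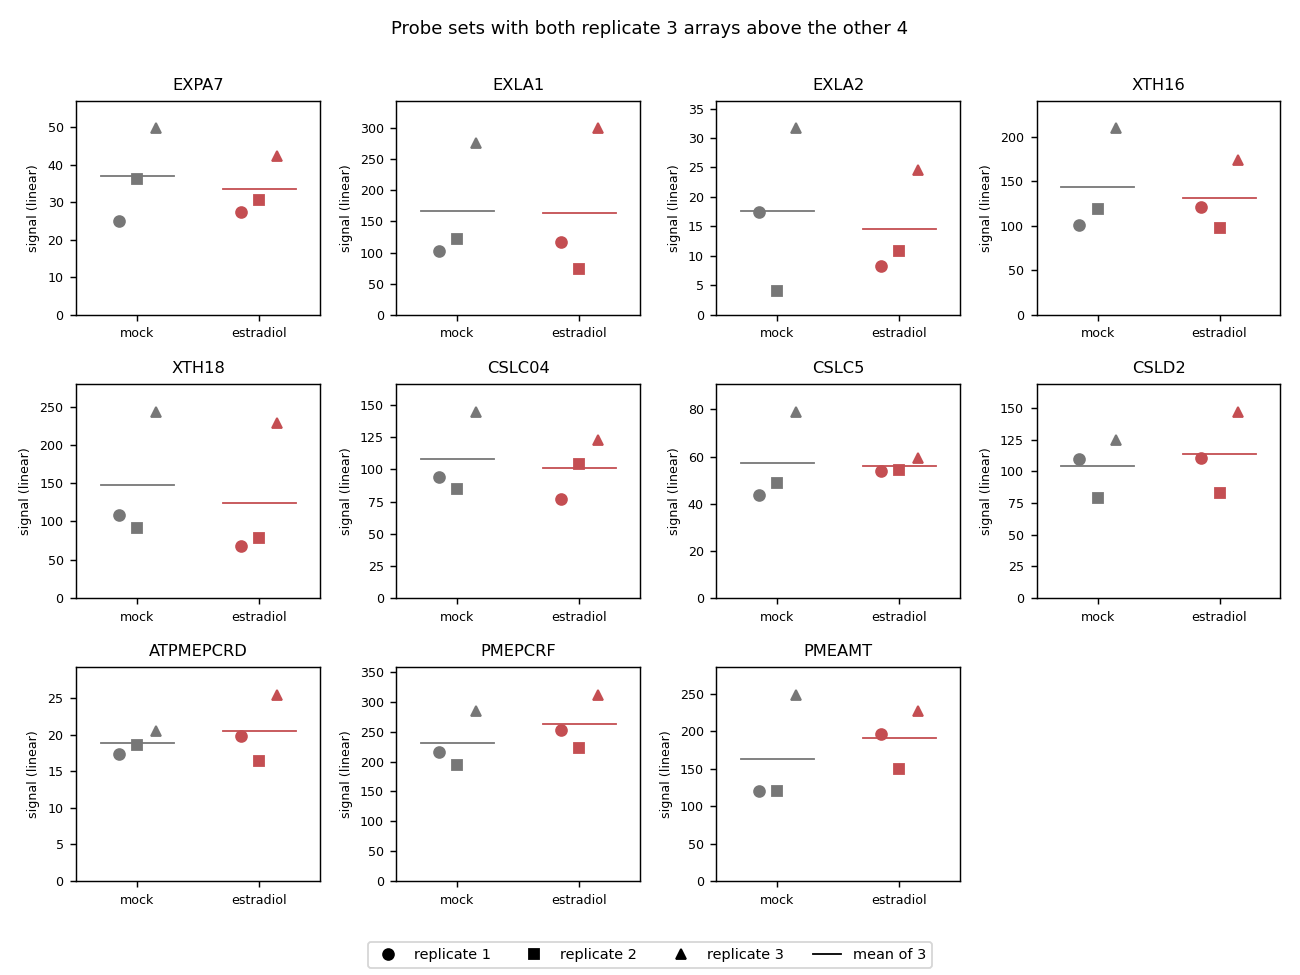
Deposited signal (vertical axis, linear, each panel on its own scale from 0) of the 11 members in which both replicate 3 arrays (triangles) exceed the other 4, with mock in grey, estradiol in red and a line at each mean of 3. In EXLA1 and XTH18 the replicate 3 signals of 229 to 300 stand well apart from the other 4 values, which lie between 67.3 and 121, and in CSLC5 and ATPMEPCRD the distance is small.

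Genes of glucan and mannan synthesis did not separate the groups. All 8 CSL members had log2 differences within 0.25 of 0 and 0 passed the threshold. CSLC04 (AT3G28180), a xyloglucan glucan synthase, gave 94.0, 84.4 and 145 in mock and 77.0, 104 and 123 with estradiol. CSLC5 (AT4G31590), of the same family, gave 43.7, 49.0 and 79.0 against 54.0, 54.3 and 59.4. In both genes mock replicate 3 was the highest of the 6 arrays and the groups overlapped. CSLC6 (AT3G07330) ranged from 34.0 to 61.6, ATCSLC08 (AT2G24630) from 17.7 to 27.9 and CSLC12 (AT4G07960) from 9.65 to 21.1, so none of the 5 genes of xyloglucan backbone synthesis separated the groups.

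CSLD2 (AT5G16910), needed for root hair growth, gave 110, 78.9 and 125 in mock and 110, 82.5 and 147 with estradiol. The replicates had the same order in both groups (log2 difference 0.09 ± 0.22 SE, limma adjusted p = 0.942). The mannan synthase family member CSLA03 (AT1G23480) gave 92.2, 88.8 and 128 against 92.0, 111 and 77.0 (log2 difference -0.12, adjusted p = 0.886). CSLA01 stayed between 7.14 and 13.5.

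**Figure D4:**
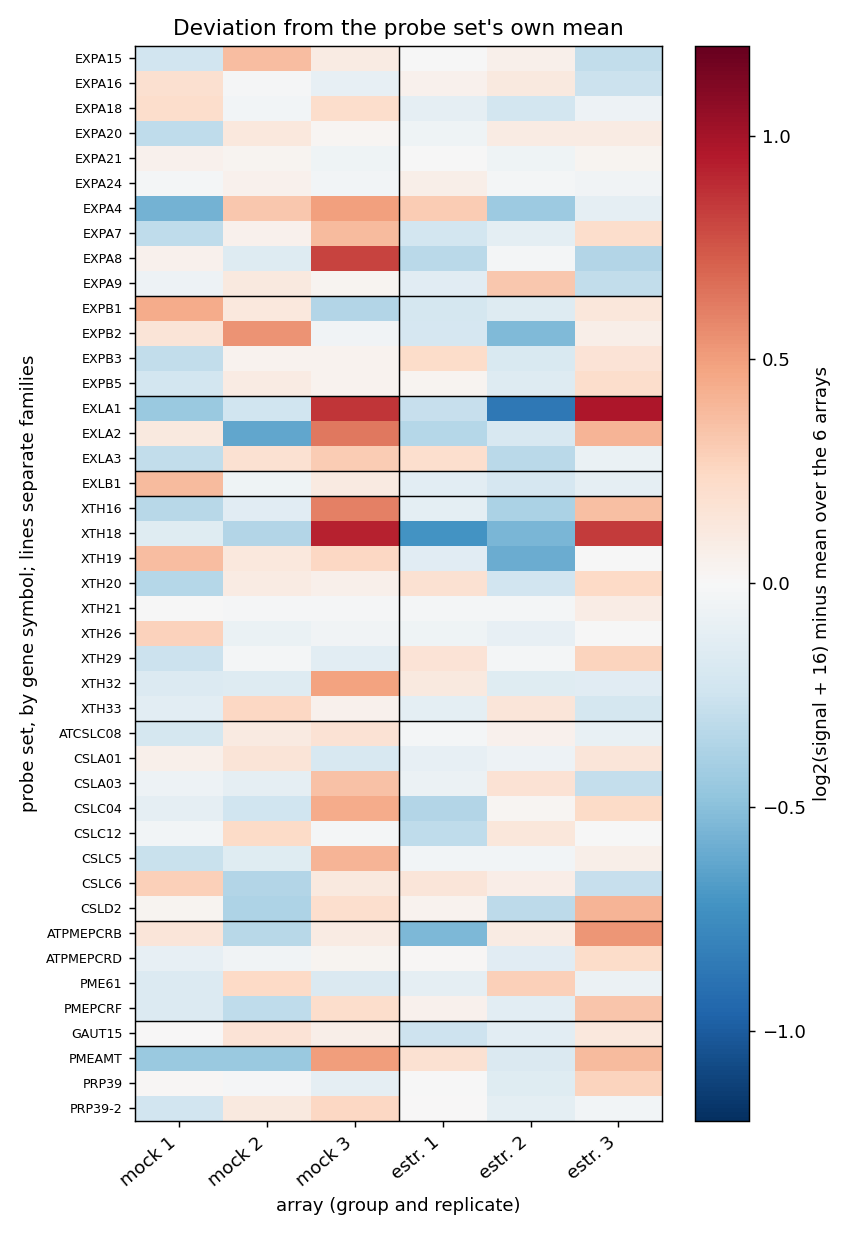
Log2(signal + 16) of each of the 43 probe sets (rows, grouped by family) on each array (columns), minus the probe set's own mean over the 6 arrays, with red above and blue below that mean. The darkest red cells fall in the mock 3 and estradiol 3 columns, at EXLA1 and XTH18, with a further one for EXPA8 in mock 3.

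All 4 pectin methylesterases among the members had positive differences, and none passed. Without estradiol replicate 3, the array with the 3'/5' ratio of 15.2, 2 of the 4 were negative, and 3 were with mock replicate 3 as the only mock array. PMEPCRF (AT5G53370) gave 216, 194 and 285 in mock and 253, 222 and 312 with estradiol. The groups overlapped and the log2 difference of 0.17 ± 0.18 SE did not pass (adjusted p = 0.823). Mock replicates 1 and 2 were its lowest arrays, as in 8.19% of all probe sets. ATPMEPCRB (AT4G02330) spread from 31.1 to 82.2 within the estradiol group alone and from 38.0 to 59.4 in mock. ATPMEPCRD (AT2G43050) went from 18.8 ± 1.58 to 20.5 ± 4.58 (log2 difference 0.06, adjusted p = 0.92) and PME61 (AT3G59010) ranged from 9.43 to 19.0. GAUT15 (AT3G58790), of the family that builds homogalacturonan, gave 24.2, 28.8 and 26.1 in mock and 17.7, 20.7 and 27.8 with estradiol, with overlap through estradiol replicate 3 (log2 difference -0.16 ± 0.12 SE, adjusted p = 0.761).

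The 3 members outside the wall families did not pass either. PMEAMT gave 121, 121 and 249 in mock and 197, 150 and 227 with estradiol, with mock replicates 1 and 2 the lowest of the 6 (log2 difference 0.26 ± 0.29 SE, adjusted p = 0.832). PRP39 ranged from 196 to 268 and PRP39-2 from 21.8 to 36.8, with overlapping groups in both.

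Of 82 further wall genes in 5 lists (nucleotide sugar supply, other polysaccharide synthesis, hydrolases and lyases, wall sensing, secondary wall and lignin), 7 have a probe set listed for them alone and 0 passed the threshold in either direction. HCT (AT5G48930), an acyltransferase of lignin precursor synthesis, had the smallest p of these, with 506, 337 and 311 in mock and 279, 277 and 224 with estradiol. Its groups did not overlap, and mock replicate 1 was high (log2 difference -0.51 ± 0.20 SE, limma adjusted p = 0.553). FER (AT3G51550), a receptor kinase that senses the wall, had -0.22 (adjusted p = 0.721) and THE1 (AT5G54380), a related kinase, -0.04 (adjusted p = 0.969). COB (AT5G60920), which orients cellulose deposition, had 0.13 (adjusted p = 0.817), IRX10L (AT5G61840), of xylan synthesis, 0.15 (adjusted p = 0.784) and ADPG1 (AT3G57510), a polygalacturonase, 0.22 at signals up to 8.89 (adjusted p = 0.718).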

How the data were processed

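Per the labels, the extracted molecule was total RNA, the label was biotin and the arrays were Affymetrix arrays of 1 colour. The deposited table holds an intensity for each probe set on each array, on a linear scale and scaled by the authors to a common trimmed mean. GCOS and affy are named per the submitters' processing notes; how probes were summarised is not stated. Of 22810 probe sets, 64 controls were left out and the other 22746 tested without a filter. The platform annotation lists 1 gene for 13513 probe sets, several for 503 and none for 8730. Entrez IDs gave the TAIR10.1 loci of all 43 members. No coordinates are given, since the build is not named.

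Values were transformed to log2(intensity + 16) and fitted in limma 3.58.1 (R 4.3.3) by lmFit and eBayes with group alone as predictor. Two-sided p-values were adjusted by Benjamini-Hochberg over all probe sets, with a threshold of 0.05. Differences of dim probe sets are understated on this scale. An exact permutation test of 3 against 3 arrays has a smallest p of 0.1. The number of arrays limits the precision. The script was tested on simulated data. Figures used matplotlib 3.10.9 in Python 3.11.15.

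The members and lists were chosen with earlier results of these data known. Genes described in full were those past the threshold, in each family the one with the highest mean signal and the 2 with the smallest p, and over all members the 6 with the smallest p in each direction. This gave 23; the remaining members, EXPA7, CSLC04, CSLC5 and XTH18 among them, were described after their values were seen. The alternatives changed the pseudocount, scaling, dim filter, array weights, variance trend, pairing, member rule and the arrays used.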

Additional observations from a re-analysis of the deposited data

How the results depend on the processing

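The number of members called was 0 under all 16 alternatives, with a lowest adjusted p between 0.335 and 0.869. At an unadjusted p under 0.05 it was at most 1 higher and 4 lower. The shares over all probe sets in those fits were not computed, so these counts cannot be set against them. The number of calls over all probe sets was 26, and it ranged from 0 with a pseudocount of 1 to 97 with the dimmest 25% of probe sets removed. It was also 0 without mock replicate 2, estradiol replicate 1, estradiol replicate 2 or both replicate 3 arrays. Without mock replicate 1 it was 1, and without mock replicate 3 it was 2. Where no probe set was called at all, the count of 0 members says nothing particular about them. The same holds for the fit with mock replicate 3 as the only mock array. With the replicate number as a block 0 members passed (lowest adjusted p 0.397) and 17 probe sets were called in all. The labels do not state a shared batch, so the numbers were not taken as pairs in the main fit. Over all probe sets, deviations from the group means correlated between mock and estradiol arrays of the same number at 0.0908, 0.113 and 0.329 for numbers 1, 2 and 3. Between numbers 1 and 2 the correlations were 0.133 and 0.174, and between number 3 and another number -0.25 to -0.18. Among the members the same-number correlations were -0.16, 0.21 and 0.48. Members chosen by current symbols were the same 43. Of the 27 genes followed, 9 kept the sign of their difference throughout, though not its size. With 1 array or both replicate 3 arrays left out, the median log2 difference ranged as follows: all members -0.11 to 0.027, alpha-expansin -0.16 to -0.023, beta-expansin -0.23 to 0.021, A-type expansin-like -0.31 to 0.20, XTH -0.21 to 0.10, CSL -0.13 to 0.046, pectin methylesterase 0.0081 to 0.17. Over the same settings the 9 gave XTH19 -0.61 to -0.32, EXPA18 -0.34 to -0.21, EXLB1 -0.39 to -0.17, EXPB2 -0.71 to -0.27, EXPA8 -0.66 to -0.12, GAUT15 -0.27 to -0.078, EXLA3 -0.31 to -0.0032, EXPB3 0.024 to 0.26 and XTH29 0.21 to 0.35. PMEAMT gave 0.10 to 0.58 and PMEPCRF 0.046 to 0.32. The genes whose sign changed under these settings had log2 differences of: EXPA20 -0.025 to 0.19, EXPA7 -0.26 to 0.086, EXPA9 -0.25 to 0.065, CSLC12 -0.21 to 0.0098, CSLA03 -0.23 to 0.14, CSLD2 -0.092 to 0.27, CSLC04 -0.20 to 0.14, CSLC5 -0.13 to 0.21, EXLA2 -0.42 to 0.20, EXLA1 -0.63 to 0.29, PRP39-2 -0.23 to 0.0099, PRP39 -0.076 to 0.17, ATPMEPCRD -0.030 to 0.15, XTH20 -0.016 to 0.27, XTH18 -0.77 to 0.10, XTH16 -0.29 to 0.19. With mock replicate 3 as the only mock array, the A-type expansin-like median was -0.68, CSLD2 was -0.15, CSLC5 was -0.40, PMEAMT was -0.37, PMEPCRF was -0.13, ATPMEPCRD was -0.0044. With a pseudocount of 64 CSLC5 was -0.0048. The cause of these changes was not tested.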
